A study of Drosophila melanogaster with 2 samples.

Results

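Peaks of the transcription factor Single-minded (Sim) were examined at 9 genes of the trithorax group: ash1, trx, osa, brm, Snr1, tara, Trl, mor and kis. The genes were taken by symbol from the BDGP6 (dm6) annotation, where all 9 were found among the 13945 protein-coding genes of the 6 chromosome arms. A gene was counted as carrying a peak when a peak summit lay within it or within 5 kb on either side. The group was chosen by name with the peak lists of these samples already in view, so the presence and the signal of its peaks are given as a description, with no test. Chromatin immunoprecipitation with sequencing had been done on Drosophila melanogaster embryos, taken whole at 0 to 24 h of age, in 1 group of 2 biological replicates. Every embryo carried a transgene for a fusion of Sim with enhanced green fluorescent protein, precipitated through the fluorescent tag, and the labels' antibody field names sim. A control experiment named in the labels was not analysed here, and whole embryos do not show in which cells a site was bound.

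Trithorax group proteins keep genes active through development and were found as antagonists of Polycomb group repression at the homeotic genes. Some are histone methyltransferases, some are subunits of chromatin remodelling complexes of the SWI/SNF type, and some bind DNA directly. Sim is a bHLH-PAS factor that directs the fate of the midline cells of the embryonic nervous system. The sim gene carried 4 peaks in the pooled list, the strongest of signal value 212 at rank 161.

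Values come from the pooled list of 2682 peaks, called the optimal list by its depositors, from a conservative pooled list of 2451 peaks, and from the lists of replicate 1 (1071 peaks) and replicate 2 (1676 peaks). The signal value is the strength that the authors' peak caller gave to a peak. It describes and ranks peaks within 1 list and is not comparable between lists. Each peak also has a score, which is a scaled irreproducible discovery rate (IDR) and is high where a peak ranks alike in the sets compared. The lowest score in all 4 lists was 830, an IDR of 0.0100. Read depth is unknown, because the lists hold no read counts.

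Of the 9 genes, 8 carried a peak in the optimal list, and mor carried none. By the same rule 30% of all protein-coding genes carried one. In the conservative list 7 of the 9 did, against 27.8% of all genes, and Snr1 was the gene that dropped out. The list of replicate 1 gave 7 members, against 15.0% of all genes, and that of replicate 2 gave 7, against 21.9%. Both replicate lists held a peak for 7 members (ash1, trx, osa, brm, tara, Trl and kis), against 12.9% of all genes. The same 7 genes carried a peak among the 670 strongest optimal peaks, against 10.4% of all genes. A cut at the 100 strongest peaks was chosen after the values were seen, and 5 members passed it (ash1, osa, tara, Trl and brm), against 2.21% of all genes. At least 2 optimal peaks lay at 5 members, against 9.32% of all genes. A summit inside the gene itself was carried by 5 members (trx, osa, tara, Trl and kis), against 8.13% of all genes. The same 5 members were the gene with the nearest TSS of at least 1 optimal peak, against 13.5% of all genes. Since peak presence had a part in choosing the group, these shares stand beside its counts and support nothing about it.

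**Figure D1:**
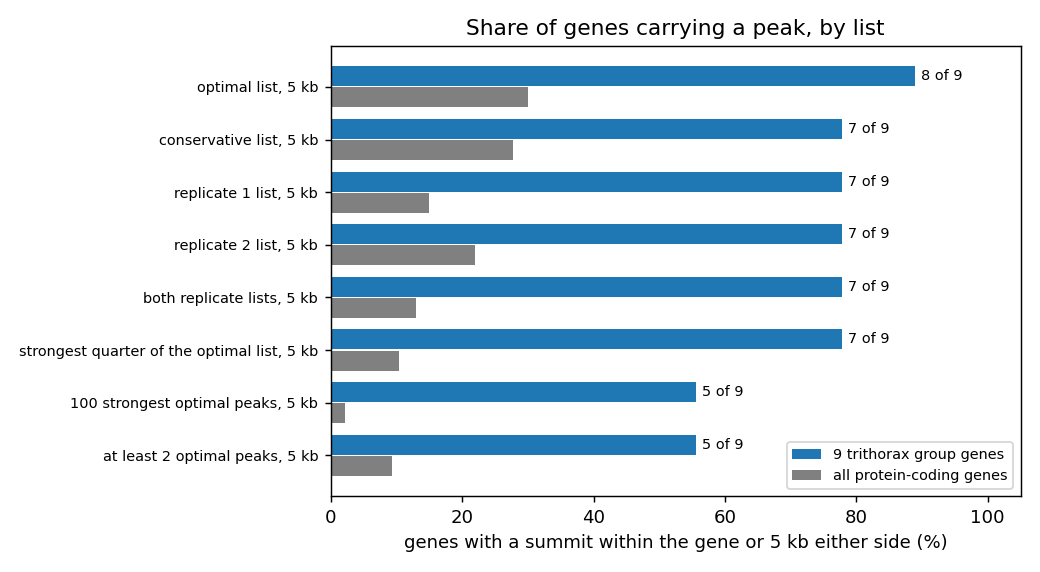
Share of genes with a peak summit within the gene or 5 kb either side, for the 9 trithorax group genes (blue, count printed at the bar) and for all protein-coding genes (grey), by peak list on the vertical axis. The blue bar falls from 8 of 9 genes in the optimal list to 5 of 9 among the 100 strongest peaks, where the grey bar is at 2.21%.

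Long genes offer more room for a peak. All protein-coding genes were split by length into 4 classes of about equal number. The class from 4999 bp upwards held 7 members, and in it 42.9% of the 3486 genes carried an optimal peak, as did all 7 of these members. Snr1 (1829 bp) belonged to the class from 1180 to 2166 bp, where 26.7% of genes carried a peak. The gene mor (4780 bp) belonged to the class from 2167 to 4998 bp, where 31.1% did. The part of gene length in the members' counts was not tested.

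The bases at the strongest site of 7 members are shown because they carry the highest signal at these genes, with 3 further sites of trx and tara that are described below. Each run is the reference sequence, credited to RefSeq, of 50 bp on either side of a summit in dm6, written 5′ to 3′. Capitals mark matches on either strand to the pattern TAATTA, to the pattern GAGAG or to the pattern GCCAT. No match to ACGTG was found in these windows, and none to CATATG or to the longer TATCGATA.
ash1, chr3L:19590572-19590672, plus strand: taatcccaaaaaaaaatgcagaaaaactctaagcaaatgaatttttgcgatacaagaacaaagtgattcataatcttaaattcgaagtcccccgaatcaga
trx, intron, chr3R:14278054-14278154, plus strand: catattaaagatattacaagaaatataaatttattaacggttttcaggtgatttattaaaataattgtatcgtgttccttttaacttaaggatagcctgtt
trx, entry absent from the optimal list, chr3R:14283851-14283951, plus strand: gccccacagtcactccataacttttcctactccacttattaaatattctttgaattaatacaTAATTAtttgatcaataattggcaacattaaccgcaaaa
brm, chr3L:15982955-15983055, plus strand: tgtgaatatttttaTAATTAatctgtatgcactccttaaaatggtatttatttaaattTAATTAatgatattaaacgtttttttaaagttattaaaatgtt
osa, chr3R:17704342-17704442, plus strand: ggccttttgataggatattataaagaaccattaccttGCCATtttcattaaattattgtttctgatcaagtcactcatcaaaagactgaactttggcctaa
kis, chr2L:223504-223604, plus strand: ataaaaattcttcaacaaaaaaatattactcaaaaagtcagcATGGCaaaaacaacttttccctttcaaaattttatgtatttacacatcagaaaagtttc
Trl, chr3L:14759452-14759552, plus strand: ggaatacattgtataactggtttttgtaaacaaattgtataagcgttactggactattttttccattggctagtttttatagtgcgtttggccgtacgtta
tara, chr3R:16222467-16222567, plus strand: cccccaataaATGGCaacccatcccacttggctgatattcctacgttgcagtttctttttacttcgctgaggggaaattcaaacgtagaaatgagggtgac
tara, upstream entry absent from the optimal list, chr3R:16224419-16224519, plus strand: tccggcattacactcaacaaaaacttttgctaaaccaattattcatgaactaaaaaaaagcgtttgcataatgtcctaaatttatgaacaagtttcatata
tara, intron entry absent from the optimal list, chr3R:16236890-16236990, plus strand: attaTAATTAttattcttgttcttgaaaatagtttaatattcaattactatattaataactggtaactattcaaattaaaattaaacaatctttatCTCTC

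The histone methyltransferase gene ash1 had the strongest site of the group. Its single optimal peak (chr3L:19590513-19590724) had a signal value of 711, rank 2 of the 2682 optimal peaks. In replicate 1 the signal value was 320 and in replicate 2 it was 390, at ranks 2 and 3 of the respective lists, with summits 4 bp and 1 bp from the pooled one. The summit lay beyond the 3′ end of ash1, 8133 bp from the ash1 transcription start site (TSS), and only 98 bp from the TSS of the neighbouring gene CG14100. This summit was in reach of 4 protein-coding genes, ash1 included. The strongest site of the group thus lay beside ash1 and at the start of another gene.

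The gene trx encodes the founding member of the group, a histone H3 methyltransferase. It carried 1 optimal peak in an intron (chr3R:14277952-14278255), with a signal value of 123 at rank 519. Replicate 1 gave 50.6 there and replicate 2 gave 74.3, both in the thresholded lists. A peak of signal value 26.9 was listed beside it in replicate 1 alone, at chr3R:14278589-14278884.

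A stronger trx site was present in the ranked lists and absent from every thresholded list. It lay in an intron 3002 bp downstream of the TSS (chr3R:14283815-14283965), with a pooled signal value of 257, rank 104 of the pooled ranked list, and the highest possible score of 1000. Its signal values were 100.3 in replicate 1 and 157 in replicate 2, again with scores of 1000. Both replicates and the pooled data thus ranked this site above the intronic peak that was listed. The thresholded lists were made from 1 further input beyond those of the ranked lists, per the text files deposited beside them, and what that input holds is not given in the sources used here.

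Genes for the remodelling complex of the SWI/SNF type ranged from 3 optimal peaks at osa to 0 at mor. The gene brm encodes its ATPase, osa a subunit with an ARID domain that marks one form of the complex, and mor and Snr1 encode core subunits. The strongest brm peak (chr3L:15982938-15983079) had a signal value of 262 at rank 95, with 94.5 in replicate 1 and 163 in replicate 2. It lay between genes, 136 bp upstream of the nearest brm TSS and 130 bp from the TSS of Arl1, which is transcribed the other way. Its summit shifted by 0 bp and 1 bp between the pooled list and the replicates. A second brm peak of 53.1 lay beyond the 3′ end of the gene in coding sequence, 398 bp from the TSS of CG10516, and was listed in neither replicate.

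The gene osa carried 3 optimal peaks, all inside it and in reach of no other protein-coding gene. The strongest (chr3R:17704310-17704488) had a signal value of 396 at rank 35, with 168 in replicate 1 and 222 in replicate 2. It lay in an osa intron, 13958 bp downstream of the osa TSS, and at the same time in an exon of the noncoding gene lncRNA:CR46035, 697 bp from the start of that gene. The next osa peak (chr3R:17700436-17700739) had 214 at rank 155, with 67.3 in replicate 1 and 138 in replicate 2. Its summit lay 17762 bp downstream of the osa TSS, and the nearest TSS was that of CG31249, 13517 bp away. The third osa peak, 5141 bp downstream of the TSS, had 55.3 at rank 2304 and was listed in replicate 2 (38.9) but not in replicate 1. The conservative list added an osa site of signal value 60.1.

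Snr1 had a peak in 1 of the 4 lists and mor in none. For Snr1, a single optimal peak of 62.6 lay 3828 bp upstream of its TSS, at rank 1905 with a score of 991. It was absent from the conservative list and from both replicate lists. Its summit lay in the 5′ UTR of the ribosomal protein gene RpL35A, 3 bp from that TSS, and the mitochondrial ribosomal protein gene mRpL44 was also in reach. In the ranked lists the site had 20.4 in replicate 1 and 35.7 in replicate 2.

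At mor the strongest pooled entry (chr3R:15974315-15974618) had a signal value of 53.2 and a score of 666, an IDR of 0.0249. It lay in an intron of Hel89B, 1554 bp upstream of the mor TSS. Replicate 2 gave 49.2 there with a score of 848, which is above the lowest listed score, yet the entry was absent from the replicate 2 list. No entry of replicate 1 overlapped the site.

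**Figure D2:**
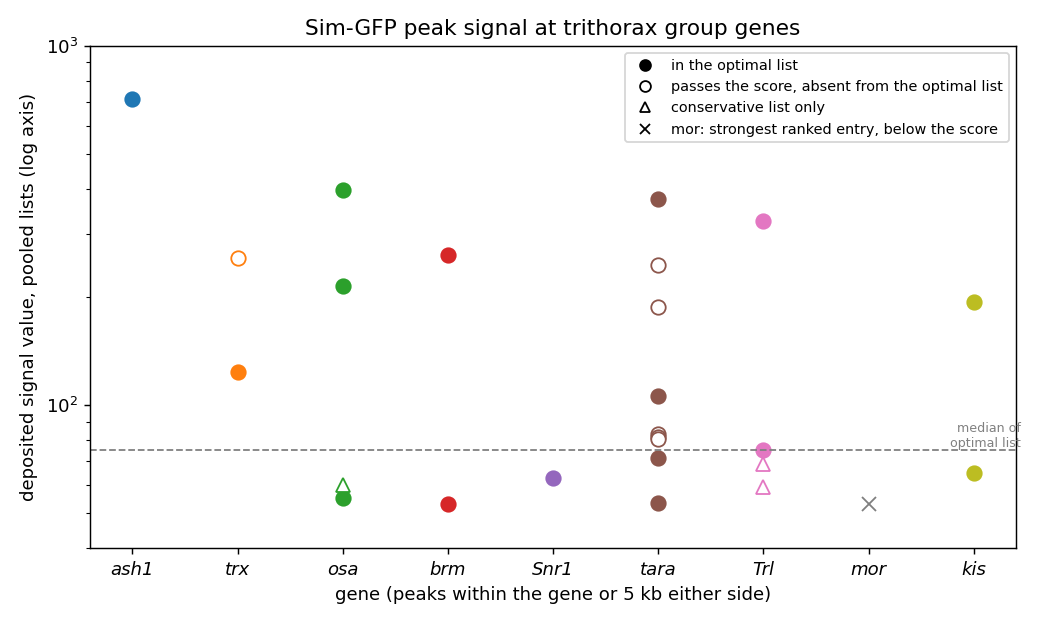
Signal value of every site at the 9 genes in the pooled lists, on a log axis, with 1 column of points per gene and the median of the optimal list (75.1) as a dashed line. The ash1 site at 711 is the highest, and tara has the most sites, of which 5 pass the score but are absent from the optimal list.

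A chromodomain helicase of the CHD family is encoded by kis. Both kis peaks lay in introns and in reach of no other protein-coding gene. The stronger (chr2L:223496-223572) was 77 bp wide, with a signal value of 193 at rank 199. Replicate 1 gave 80.3 and replicate 2 gave 113. The summit also lay in an exon of the noncoding gene lncRNA:CR44222, 35 bp from its start, and 1592 bp upstream of the nearer kis TSS. The weaker kis peak had 64.8 at rank 1785, lay 1313 bp downstream of that TSS and was listed in neither replicate.

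Trl encodes the GAGA factor, a DNA-binding protein that recognises repeats of GA. Its strongest peak (chr3L:14759408-14759600) had a signal value of 327 at rank 54, with 128 in replicate 1 and 192 in replicate 2. It lay in an intron 1540 bp upstream of an internal TSS that Trl shares with CG42507. The second Trl peak (75.2, rank 1339) lay in a 5′ UTR of Trl, 133 bp downstream of a TSS, and was listed in replicate 2 alone (50.3). The conservative list alone held Trl sites of 68.8 and 59.1.

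The gene tara, which encodes a nuclear protein found through its genetic interaction with trithorax and Polycomb group genes, held the most sites. Its strongest peak (chr3R:16222403-16222590) lay 3134 bp upstream of the TSS with a signal value of 376 at rank 38. Replicate 1 gave 148 and replicate 2 gave 229, with summits 29 bp and 0 bp from the pooled one. A tara peak of 106 in an intron was listed in both replicates (53.4 and 55.1). The tara peak of 71.5 beyond the 3′ end was listed in replicate 2 alone (37.99). Its summit lay 18299 bp from the nearest tara TSS and 2980 bp from the TSS of bor, and asun was also in reach. The tara peak of 53.5, 3795 bp upstream of the TSS, was listed in neither, and replicate 2 scored it 829, just under the lowest listed score.

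At tara 5 more entries passed the score in the pooled ranked list and were absent from the optimal list. The strongest (chr3R:16224431-16224572) lay 1182 bp upstream of the tara TSS, nearer to it than any listed tara peak, with a pooled signal value of 246, and 105 in replicate 1 and 138 in replicate 2. The next (chr3R:16236788-16237091), in an intron, had 188, with 64.9 in replicate 1 and 127 in replicate 2. The other 3 lay in introns, with pooled signal values of 83.3, 81.7 and 80.3. With these entries the tara window held 9 sites in place of 4, and no protein-coding gene held more entries of this kind, with cbt, MED15 and ush also at 5. Why these entries were absent was not tested.

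**Figure D3:**
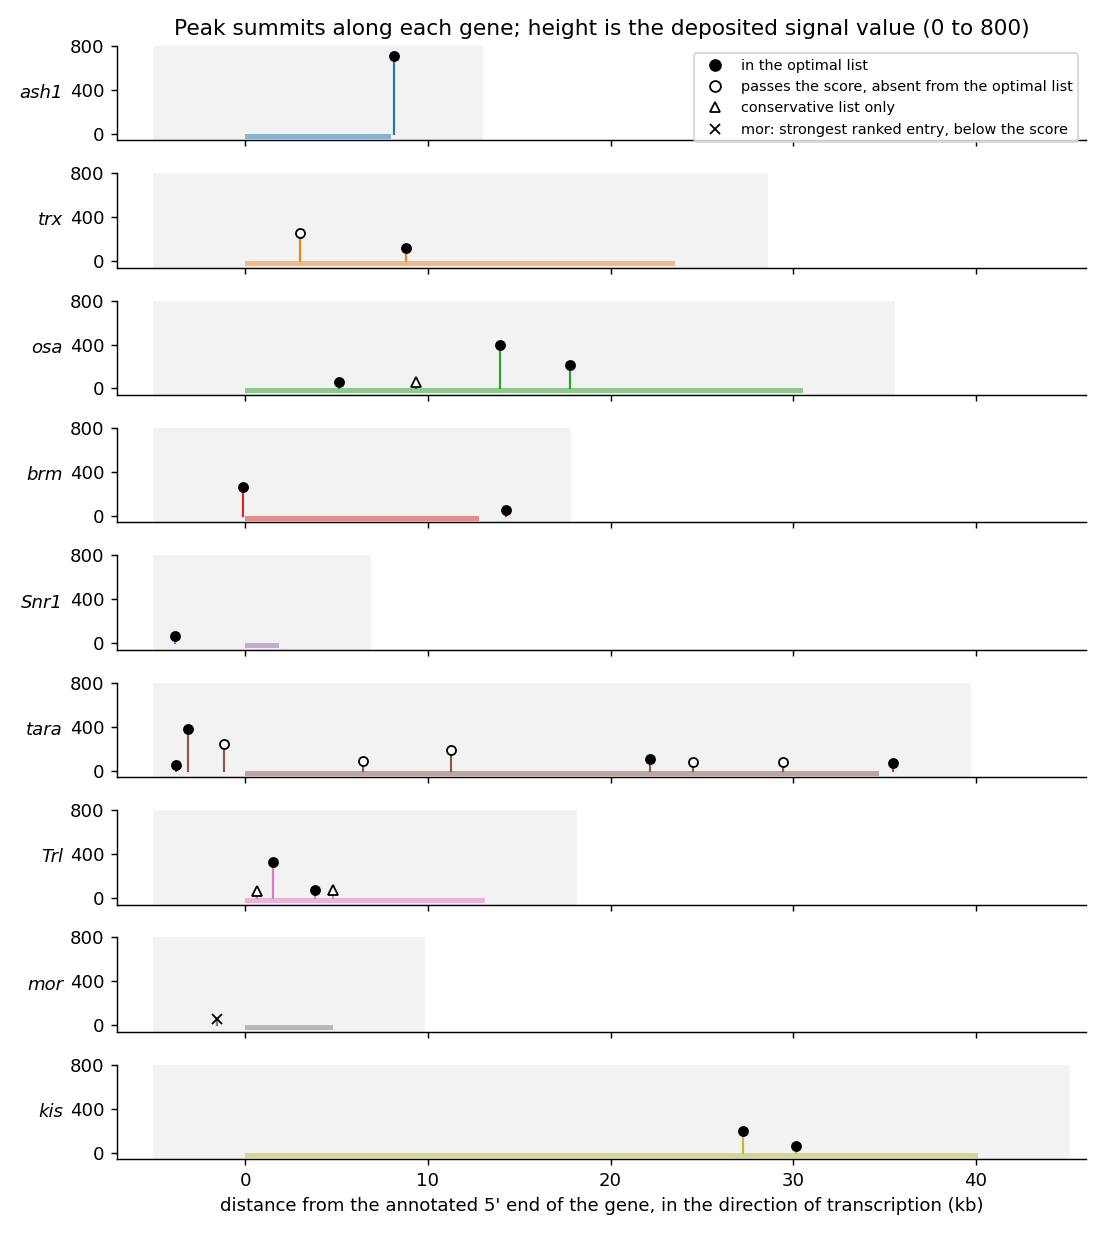
Peak summits along each gene, with the distance from the annotated 5′ end in kb on the horizontal axis, the gene as a coloured bar, the searched window shaded and the height of each stem giving the pooled signal value. The ash1 site stands beyond the 3′ end, the strongest brm site at the 5′ end, and the tara sites are spread from 3795 bp before the gene to beyond its end.

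Across the 9 genes there were 16 optimal peaks. Of these, 9 (56.2%) were overlapped in both replicate lists, against 30.8% of all optimal peaks, and 4 (25%) in neither, against 34.3%. The 8 member peaks among the 670 strongest were listed in both replicates, and of the other 8 only the tara peak of 106 was. Pooled signal and replicate lists come from the same data, so this is no independent support. The same share for all 670 strongest peaks is not given here. The median best signal was 294 for the 8 members with a peak and 87.4 for the 4190 protein-coding genes with one. A longer gene or more peaks give more chances of a strong best peak, and the part of this was not tested. Of the 16, 6 (37.5%) were narrower than the full width of 304 bp, against 7.76% of all optimal peaks. All 6 were among the 670 strongest. Since the group was chosen with the peak lists in view, these contrasts support nothing about it.

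**Figure D4:**
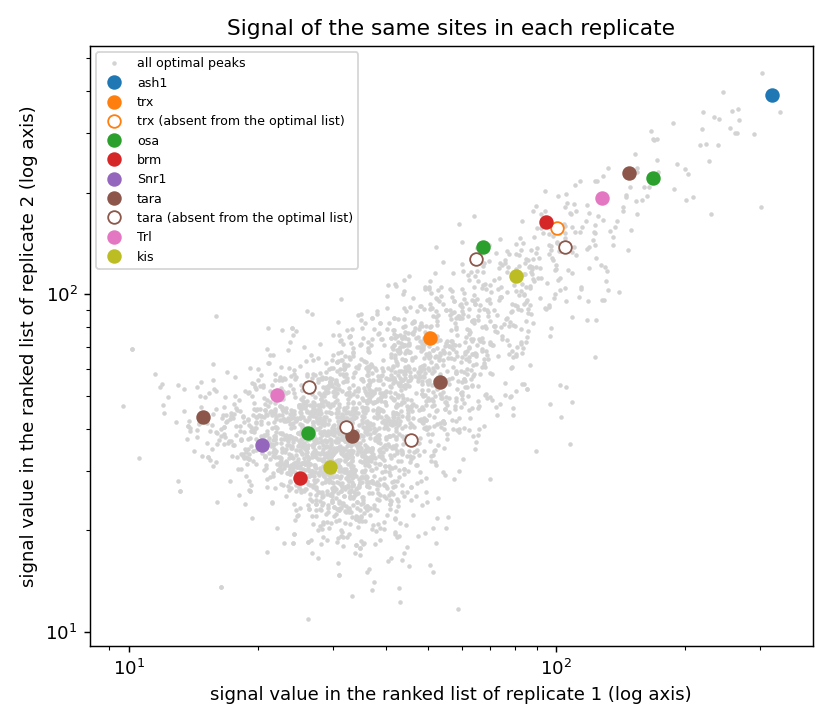
Signal value of the same sites in the ranked lists of replicate 1 (horizontal) and replicate 2 (vertical), both on log axes, with all optimal peaks in grey, member peaks as filled circles and entries absent from the optimal list as open circles. The ash1 site at 320 and 390 is the highest member in both, and the open trx circle lies above and to the right of the filled one.

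Most of the member peaks were away from promoters of protein-coding genes, as were most of all optimal peaks. A TSS of a protein-coding transcript lay within 500 bp of 5 of the 16 summits (31.2%), against 40.3% of all optimal summits. These 5 were the ash1 peak at CG14100, both brm peaks, the Snr1 peak at RpL35A and the second Trl peak. At only 2 of them, in brm and Trl, did the member's own TSS lie that near. Starts of noncoding genes were left out of both shares, and the strongest kis summit lay 35 bp from such a start. Introns held 6 member summits (37.5%), against 50% of all optimal summits, and intergenic sequence held 5 (31.2%), against 33.8%. There were 2 in 5′ UTRs (12.5%), against 9.13%, and 2 in exons of noncoding genes, where 3.17% of all optimal summits lay in exon sequence outside UTRs and coding sequence. Coding sequence held 1 (6.25%), against 2.50%. Of the 16 summits, 9, at trx, osa, tara and kis, were in reach of no protein-coding gene but the member.

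Base composition at these sites was read from the reference. The 101 bp at the 16 summits had a median GC content of 33.7%, with a range of 15.8% to 54.5%, and the windows of equal length 300 bp to either side had a median of 41.8%. In 11 of the 16 peaks the summit was poorer in GC than its flanks. Over all 2682 optimal peaks the medians were 33.7% and 43.6%, and 1877 summits were poorer than their flanks. The brm promoter site had 15.8% at the summit and 53.0% in the flanks, the widest gap among the 16 member peaks. The strongest tara site went the other way, with 45.5% and 38.6%. The median for the 8 member peaks among the 670 strongest was 28.2%, beside 29.7% for all 670, and for the other 8 member peaks it was 39.6%.

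**Figure D5:**
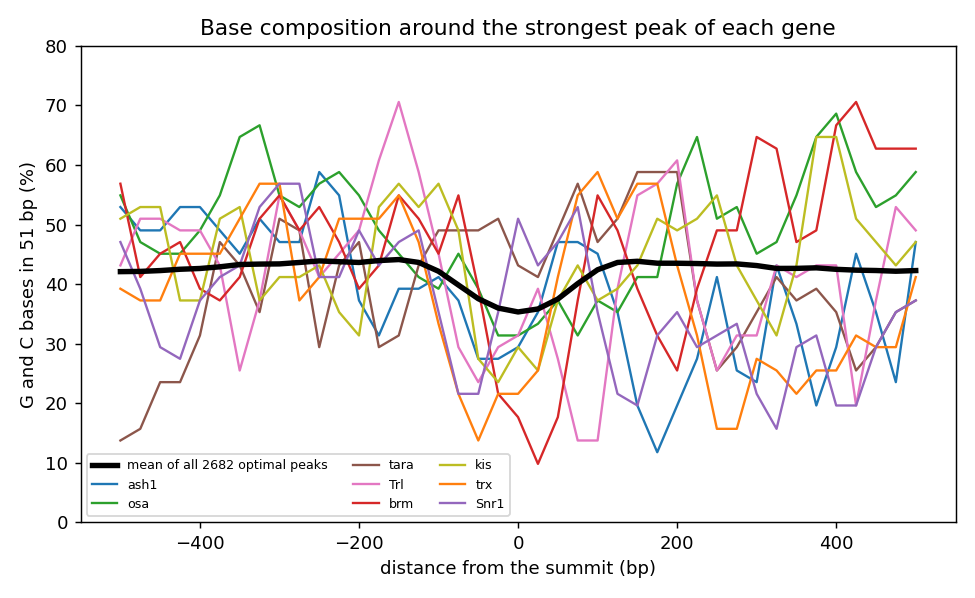
Percentage of G and C bases in sliding windows of 51 bp, against distance from the summit in bp, for the strongest peak of each of the 8 members with a peak (thin lines) and the mean of all 2682 optimal peaks (thick black line). The mean is 35.3% at the summit, the brm line is at 17.6% there, and the tara and Snr1 lines are above the mean at the summit.

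Short patterns known for factors of this system were searched on both strands in the 101 bp at each summit. The core of the Sim site, ACGTG, was present at 1 of the 16 member summits, against 7.27% of all optimal summits. It was in the tara peak beyond the 3′ end, which lay nearer to the TSS of bor than to a TSS of tara. The GAGA factor pattern GAGAG was present at 2, the weaker brm and kis peaks, against 12.8%. With 100 bp on either side in place of 50, ACGTG was at 3 member peaks (18.8%), against 14.8% of all optimal peaks, and GAGAG at 6 (37.5%), against 27.3%. Anywhere in the listed peak, ACGTG was at 2 of 16 (12.5%), against 22.1%. In either of the 2 windows of 101 bp lying 300 bp to the sides, ACGTG was at 4 of 16 (25%), against 17.9%. At Trl itself neither peak held GAGAG within 50 bp of its summit. Over the whole listed peak 6 of 16 (37.5%) held GAGAG, against 39.0% of all optimal peaks, with 4 matches each in the trx peak and the second osa peak, where matches may overlap. The homeodomain pattern TAATTA, a palindrome, was at 1 member summit, in brm with 2 matches, against 9.06%. The palindrome CATATG was at 0 of 16, against 4.66%. The palindrome TATCGATA, bound by the factor Dref, was at 0 of 16, against 0.858%. GCCAT, the core of the site of the Polycomb group protein Pho, was added after the data were seen. It was at 3 member summits (18.8%), the strongest ones of osa, tara and kis, against 14.2%. Within 100 bp of the summit it was at 4 (25%), against 26.4%, and anywhere in the listed peak at 8 (50%), against 38.9%. In either of the windows to the sides it was at 6 (37.5%), against 31.2%.

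A wider list of 36 genes related to the group was compiled from known complexes. Of these, 14 (38.9%) carried an optimal peak, against 30% of all protein-coding genes, and 5 carried one in both replicate lists, against 12.9%. The count of 14 was 5 for summits inside the gene, against 8.13% of all genes, and 6 for the nearest TSS, against 13.5%. In the list of replicate 1 it was 7, against 15.0% of all genes, and 5 of these were also in that of replicate 2. Among the subunits of the remodelling complexes other than the members, 1 of 6 (16.7%) carried a peak, Bap111 (59.7). Among the subunits of COMPASS, the complexes that methylate histone H3 at active genes, 3 of 12 (25%) did, led by wds (133), with Utx (70.2) and trr (59.7). Of the 18 other genes of the wider list 10 did (55.6%). The share of all protein-coding genes beside these classes is again 30%. Over all 36 genes the strongest peaks were at Caf1-55 (575, rank 9), a histone-binding subunit of several chromatin complexes, MRG15 (172), wds (133), nej (131), which encodes the coactivator CBP, Mi-2 (93.8), a remodelling ATPase, and lola (81.8), a transcription factor gene. The Caf1-55 peak lay 126 bp from the TSS of mRpS10 and 3963 bp from that of Caf1-55, and the MRG15 peak 103 bp from the TSS of CG4338. The wds peak lay 1161 bp from the TSS of egh and 3684 bp from that of wds. For trr the peak lay 33 bp from the TSS of CG14805 and 12600 bp from that of trr. The Utx peak lay 149 bp from the TSS of Utx. The median best signal of the 14 genes with an optimal peak was 74.6. No peak was shared between the window of a member and that of a gene of the wider list.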

How the data were processed

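Peak lists came from ChIP-seq of 2 biological replicates in 1 group. Per the text files deposited beside them and the labels, coordinates are dm6, and the authors deposited ranked and IDR-thresholded lists. No source used here names the aligner, the peak caller or its settings. The deposited score is the scaled IDR, and the deposited signal value is the peak caller's strength. Depth is unknown. In each of the 2 ranked lists of the whole series, 8 columns of compared sets were not used. The second of these lists was not used at all.

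Genes came from Ensembl release 115 (BDGP6) and bases from RefSeq's sequence of that assembly. All 4 thresholded lists were searched within genes and 5 kb either side. Overlap meant 1 bp. Every TSS was that of a protein-coding transcript. Ranked entries with a score of at least 830 that were absent from the corresponding list were also collected. In the wider list 1 gene, listed under the older symbol lid, was matched to its current symbol Kdm5. Named genes are all members, the gene with the nearest TSS to each member peak, and the 6 genes of the wider list with the strongest peak. Other genes were named after their values were seen. The members and lists were chosen with earlier results of these data known, and no test was made. The gene search and the pattern search were checked on made-up data. Python 3.11.15, numpy 2.4.6, pandas 2.3.3 and matplotlib 3.10.9 were used.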

Additional observations from a re-analysis of the deposited data

How the results depend on the processing

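The count of 8 members with a peak became 5 when only summits inside the gene were counted and 5 when only the nearest TSS decided the gene of a peak. It was 7 with 1 kb either side, in the conservative list and among the 1341 strongest optimal peaks. Each replicate's own list also gave 7. With 10 kb either side, and with the absent ranked entries added back, the count stayed at 8. For the wider list, the count of 14 became 5 inside genes, 7 with 1 kb either side, 7 among the 1341 strongest peaks and 6 with the nearest TSS. It became 12 in the conservative list, 17 with 10 kb either side and 15 with the absent entries added back. The list of replicate 1 gave 7 and that of replicate 2 gave 14. The 14 of replicate 2 included Dpy-30L1 and corto, which had no optimal peak. In place of the 16 optimal peaks at the members, the list of replicate 2 held 12 and that of replicate 1 held 10. The replicate 1 peak of 26.9 at trx overlapped no optimal peak. The conservative list held 17, and the count was 22 with the absent entries added back, an alternative chosen after seeing the data. Within 100 bp of the summit in place of 50 bp, ACGTG was at 3 member peaks and 14.8% of all optimal peaks, and GAGAG at 6 and 27.3%. The 9 peaks overlapped in both replicates stayed at 9 when the summit, or at least 50% of the peak, had to be covered. The causes were not tested. No paired analysis was possible because the series has 1 group. With depth unknown, a site missing from a list is not shown to be unbound.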

Other observations

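Entries that passed the score and were absent from the optimal list were uneven along the genome. They numbered 69 of the 2751 passing entries of the pooled ranked list (2.51%). On 3R they were 39 of 643 (6.07%) and on 2L 23 of 549 (4.19%), compared with 4 of 603 on 3L (0.663%) and 2 of 510 on 2R (0.392%). The strongest had a signal value of 652. At least 1 such entry lay within 5 kb of 102 protein-coding genes (0.731% of all), among which were trx and tara, and of the wider list corto. The lists of replicate 1 and replicate 2 lacked 31 of 1102 and 55 of 1731 passing entries.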
